A study of Homo sapiens with 4 samples.

Results

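The annotated human miRNAs hsa-miR-1260a, hsa-miR-1260b, hsa-miR-1246, hsa-miR-4443, hsa-miR-3609 and hsa-miR-6516-5p, 6 in all, are thought to overlap or resemble fragments of other small RNAs, and their counts after knockdown of ERH are described here. They were picked by name from the 2366 human miRNAs counted, and they were picked because they changed strongly between ERH knockdown and control in these same libraries. Their changes are therefore given as a description. No p-value is given for them, and where they stand among the calls over all miRNAs is also a description. All 6 have a row in each library. After knockdown, miR-1260a, miR-1260b and miR-4443 were lower, and miR-1246, miR-3609 and miR-6516-5p were higher, with both guide RNAs.

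The libraries were made from gel-purified small RNA of K562, a cell line from a chronic myeloid leukaemia, that carries dCas9-KRAB. This is a nuclease-dead Cas9 joined to a repressor domain, which lowers transcription at the site a guide RNA directs it to. For each of 2 guide RNAs against ERH, an inducible polyclonal line was grown for 5 days. ERH knockdown cells received doxycycline at 0.05 µg/ml and control cells received none, and each group has 2 libraries, 1 per guide RNA. All libraries share the parent line and carry a guide RNA against ERH, and only the knockdown libraries saw doxycycline, so that an effect of the drug and one of ERH loss cannot be told apart. Knockdown libraries held 2227374 and 2393565 miRNA reads, and control libraries 1430434 and 2476700. The erythroid miRNAs miR-451a, miR-144-3p and miR-486-5p had at least 7956 reads in every library, while miR-122-5p (liver), miR-124-3p (neuron), miR-1-3p and miR-206 (muscle) had at most 8. ERH mRNA was not measured here.

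A canonical miRNA is cut out of a hairpin in its primary transcript by the Microprocessor complex of Drosha and DGCR8, which ERH, a small conserved protein, binds. Transfer RNAs, small nuclear RNAs (snRNAs, the RNA core of the spliceosome) and small Cajal body RNAs (scaRNAs, which guide modification of snRNAs) are made by other enzymes. Mature transfer RNAs end in the bases CCA, which are added after transcription. A piece of such an RNA that has the same letters as an annotated miRNA can be counted as that miRNA, and the counts do not say from which gene a read came.

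The mature sequences of 5 of the 6 miRNAs are in RefSeq (GRCh38.p14), and they are shown because their resemblance to other RNAs is the reason the group exists. Capitals mark the seed, bases 2 to 8.
miR-1260a: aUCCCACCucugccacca
miR-1260b: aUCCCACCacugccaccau
miR-1246: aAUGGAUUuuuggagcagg
miR-4443: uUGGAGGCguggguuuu
miR-6516-5p: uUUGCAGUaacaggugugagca
miR-1260a and miR-1260b share the seed UCCCACC. Over their first 18 bases they differ at 1 position, U9A (the base of miR-1260a, the position counted from the 5′ end, the base of miR-1260b), and miR-1260b is 1 base longer, so their reads cannot be split with certainty. The other 3 seeds differ from this one and from each other. The letters CCACCA were searched on the mature strand and occur in both miR-1260a and miR-1260b, against 3 of 413 tested miRNAs with a sequence (0.726%). miR-1260a ends in CCA, as do 8 of those 413 (1.94%). The mature sequences of 4 of the 5 have 19 or fewer bases, against 10 of 413 tested miRNAs (2.42%), whose median length is 22.

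Each mature sequence was searched for its longest exact run in 5721 annotated small RNA transcripts of GENCODE 29, which cover snRNA, snoRNA, scaRNA, ribosomal, mitochondrial, vault and other small RNAs but no cytosolic transfer RNA. miR-1246 and miR-6516-5p matched over their whole length, and the other 3 did not match over the 16 bases set as the minimum. Of the 413 tested miRNAs with a sequence, 7 matched over at least 16 bases (1.69%). miR-1260a and miR-1260b each reached a run of 12 bases, against a median of 11 for tested miRNAs, and miR-4443 reached 9. The resemblance of miR-1260a and miR-1260b to transfer RNA was not tested, and for miR-4443 the search found no RNA that it resembles.

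**Figure D1:**
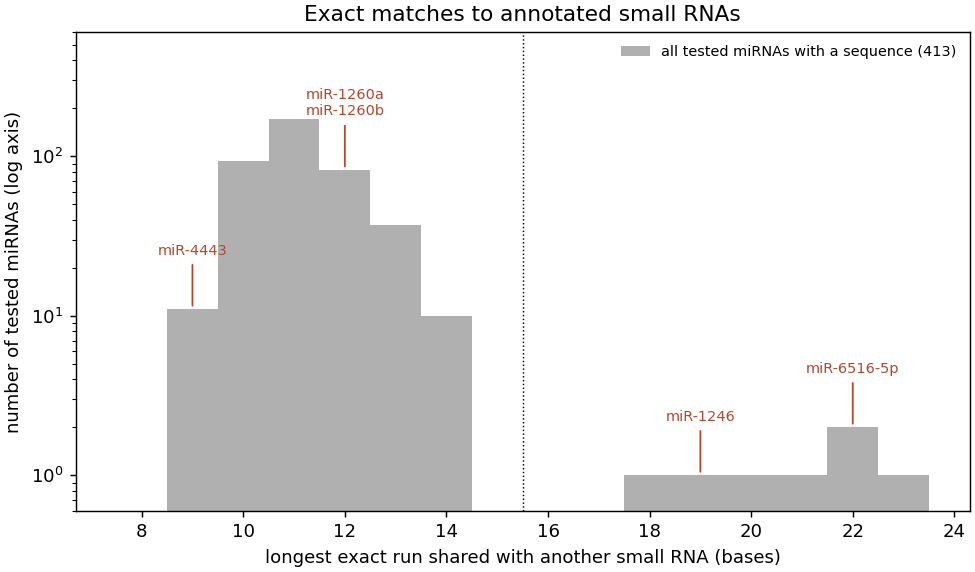
Histogram of the longest exact run (bases, x axis) that each of 413 tested miRNAs shares with an annotated small RNA, with the number of miRNAs on a log y axis and the minimum of 16 bases as a dotted line. miR-1246 (19 bases) and miR-6516-5p (22 bases) lie right of the line, and miR-1260a and miR-1260b (12) and miR-4443 (9) lie with the bulk.

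All 19 bases of miR-1246 are found in the U2 snRNA gene RNU2-1, at bases 94 to 112 of 191, and in 19 annotated transcripts in all, each an snRNA. U2 pairs with the branch point of introns during splicing. The annotated hairpin and U2 are printed to show how far the likeness goes, with the letters of miR-1246 in capitals. The hairpin is at chr2:176600980-176601052 on the minus strand (RefSeq, GRCh38.p14), and RNU2-1 at chr17:43233787-43233977 on the minus strand (GENCODE 29, GRCh38).
MIR1246 hairpin: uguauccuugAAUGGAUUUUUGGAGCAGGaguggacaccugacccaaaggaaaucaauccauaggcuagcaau
RNU2-1: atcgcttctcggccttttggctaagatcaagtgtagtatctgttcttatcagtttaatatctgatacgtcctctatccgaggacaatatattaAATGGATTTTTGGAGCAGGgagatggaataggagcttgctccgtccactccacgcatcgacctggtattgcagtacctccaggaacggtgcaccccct
The longest run that the hairpin and RNU2-1 share is 19 bases, so they part at both ends of the mature sequence. A read of exactly these letters can come from either RNA, and the count tables hold no read sequences.

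The hairpin of miR-6516 lies in exonic sequence of the long noncoding gene SNHG20, in an intron of SEC14L1, and overlaps the scaRNA gene SCARNA16 on the same strand. SCARNA16 (chr17:77089307-77089493, plus strand, GENCODE 29, GRCh38) holds both arms of the hairpin, miR-6516-5p at bases 122 to 143 and miR-6516-3p at bases 163 to 184 of 187, and both are in capitals here.
SCARNA16: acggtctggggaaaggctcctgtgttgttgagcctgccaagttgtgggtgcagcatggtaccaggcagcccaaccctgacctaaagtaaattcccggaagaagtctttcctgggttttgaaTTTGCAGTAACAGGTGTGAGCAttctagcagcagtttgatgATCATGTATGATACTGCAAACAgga
The hairpin of miR-3609 lies in an intron of TRRAP, a scaffold of histone acetyltransferase complexes, at chromosome 7, 98881650-98881729 on the plus strand. In the RefSeq gene table it overlaps the scaRNA gene SCARNA28. A RefSeq small RNA gene thus overlaps the hairpins of 2 of the 6 miRNAs, against 5 of 464 tested miRNAs (1.08%). These RefSeq overlaps are by position on either strand, and the strand of SCARNA28 was not compared with that of the hairpin.

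The other hairpins overlap no annotated small RNA gene. MIR1260A is on chromosome 14, 77266218-77266290, opposite an exon of NGB (neuroglobin), and MIR1260B on chromosome 11, 96341438-96341526, opposite an exon of MAML2, a coactivator of Notch signalling. MIR4443 lies between genes on chromosome 3, 48196564-48196616, with the mature sequence in capitals.
MIR4443 hairpin: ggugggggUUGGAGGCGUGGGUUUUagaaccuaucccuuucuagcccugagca
The study asks whether hairpins that lie near others depend more on ERH. None of the 6 hairpins is such a neighbour: the nearest annotated hairpin on the same strand is 346.9 kb away for miR-4443 and farther for the other 5, up to 7508 kb for miR-1260b.

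By predicted fold energy, the hairpins of miR-1246 and miR-1260a were among the weakest of the 309 RefSeq hairpins that give a tested miRNA. MIR1246 had -25.5 kcal/mol per 100 bases, and 0% of those hairpins were weaker. MIR1260A had -27.7, with 0.647% weaker, and MIR6516 -34.9, with 7.44% weaker. MIR1260B (-46.2) and MIR4443 (-47.9) lay near the median of -48.5 by this measure. Without division by length, MIR4443 had only -25.4 kcal/mol, weaker than the 95th percentile of -25.9. Its 53 bases are the shortest length among the 309. MIR1246 (-18.6) and MIR1260A (-20.2) were weak by this total too, where the weakest hairpin had -16.6. Of MIR1246 and MIR1260A, MIR1246 gives a miRNA that was higher after knockdown and MIR1260A one that was lower.

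Levels are given as reads and as CPM, which are reads brought to a common library total, here with TMM, a method that assumes most miRNAs keep their level. "Higher" and "lower" are relative to the bulk of miRNAs unless said otherwise. Log2 fold changes are knockdown over control, from an edgeR fit over the 4 libraries with its standard error (SE, 2 libraries per group), and the change within each guide RNA carries a 95% interval (exact binomial) that covers counting error only. With 1 culture per guide RNA and group, the spread between libraries mixes cultures and guide RNAs.

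Of the 3 miRNAs that were lower, miR-1260b was the most abundant. It had 2180 and 2660 reads in knockdown libraries, against 3812 and 6503 reads in control libraries. In CPM this was 828 and 971 after knockdown and 3023 and 3138 in controls, and the groups lie far apart compared with the spread in each. Its log2 ratio was -1.87 with guide RNA 1 (-1.94 to -1.79) and -1.69 with guide RNA 2 (-1.76 to -1.63). These intervals, of counting error only, do not overlap. The fit gave -1.78 ± 0.07, or 3.42-fold lower.

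miR-1260a, its near copy, had 4 and 6 reads after knockdown, against 11 and 28 in controls. This was 1.52 and 2.19 CPM in knockdown libraries and 8.72 and 13.5 CPM in control libraries, which do not overlap. Its log2 ratio was -2.52 (-4.63 to -0.77) with guide RNA 1 and -2.62 (-4.19 to -1.33) with guide RNA 2. The fit gave -2.61 ± 0.43. Within a library, miR-1260b had 545 and 443 reads per read of miR-1260a after knockdown, against 346 and 232 in controls. Few reads of miR-1260a, 4 to 28 per library, stand behind these ratios, and their change was not tested. The part of miR-1260b reads counted as miR-1260a in these values was not tested.

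miR-4443 had 1 and 3 reads after knockdown, against 9 and 14 in controls. These are 0.38 and 1.10 CPM in knockdown libraries and 7.14 and 6.75 CPM in control libraries. Both knockdown values are below both control values. miR-4443 was 18.8-fold lower with guide RNA 1 (2.60 to 823) and 6.17-fold lower with guide RNA 2 (1.72 to 33.5), and these intervals are wide because of the few reads. The fit gave -3.12 ± 0.56 on the log2 scale, and -3.98 without knockdown replicate 2.

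**Figure D2:**
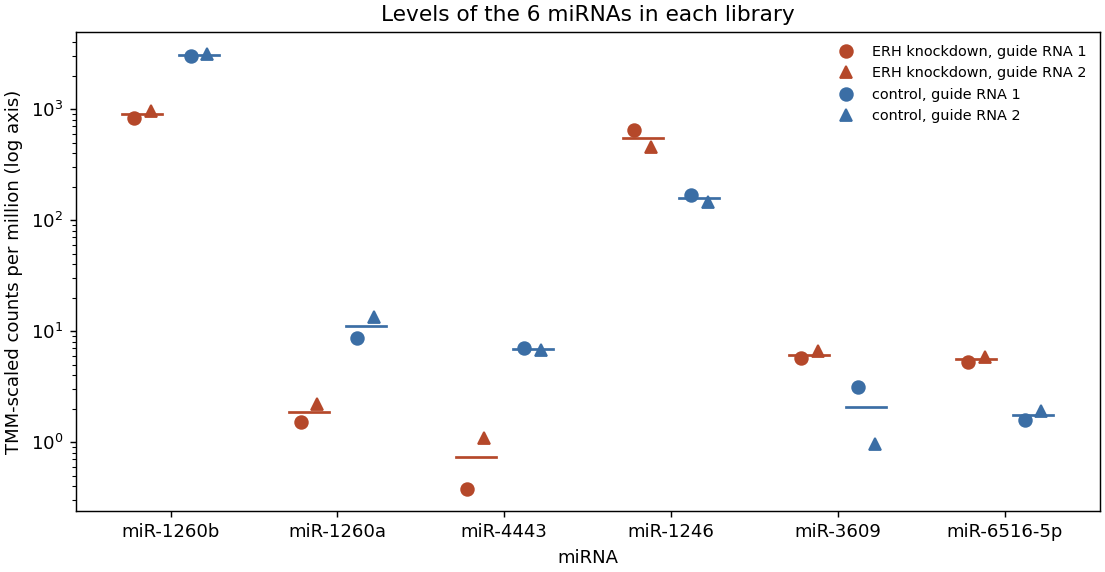
TMM-scaled CPM (log y axis) of the 6 miRNAs in the 2 ERH knockdown libraries (red) and the 2 control libraries (blue), with circles for guide RNA 1, triangles for guide RNA 2 and bars for group means. The first 3 miRNAs are lower and the last 3 higher after knockdown, and only miR-1260b and miR-1246 stay above 100 CPM in every library.

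Of the 3 miRNAs that were higher, miR-1246, the U2-like sequence, was the most abundant. It had 1704 and 1262 reads in knockdown libraries, against 214 and 304 reads in control libraries. In CPM this was 647 and 461 after knockdown and 170 and 147 in controls. The lowest knockdown library is well above the highest control, and the knockdown libraries differ from each other by more than the controls do. The log2 ratio was 1.93 with guide RNA 1 (1.72 to 2.14) and 1.65 with guide RNA 2 (1.47 to 1.84), and these intervals overlap. The fit gave 1.82 ± 0.14, or 3.53-fold higher.

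miR-3609, whose hairpin overlaps SCARNA28, had 15 and 18 reads after knockdown, against 4 and 2 in controls. These are 5.70 and 6.57 CPM in knockdown libraries and 3.17 and 0.97 CPM in control libraries. The groups do not overlap, and the controls differ from each other more than the knockdown libraries do. The log2 ratio was 0.84 with guide RNA 1 (-0.81 to 2.89), where the interval includes no change, and 2.77 with guide RNA 2 (0.71 to 5.92). The fit gave 1.74 ± 0.54. The value rests in part on control replicate 2 with its 2 reads: without that library it was 0.92, and without control replicate 1 it was 2.60.

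miR-6516-5p, whose letters lie in SCARNA16, had 14 and 16 reads after knockdown, against 2 and 4 in controls. These are 5.32 and 5.84 CPM in knockdown libraries and 1.59 and 1.93 CPM in control libraries. The groups are separate, and libraries of 1 group lie close together. The log2 ratio was 1.75 with guide RNA 1 (-0.38 to 4.93) and 1.60 with guide RNA 2 (-0.03 to 3.64), and at this depth both intervals include no change. The fit gave 1.60 ± 0.50. The other arm, miR-6516-3p, had 5 and 10 reads in knockdown libraries and 4 and 0 in control libraries, too few to be tested.

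**Figure D3:**
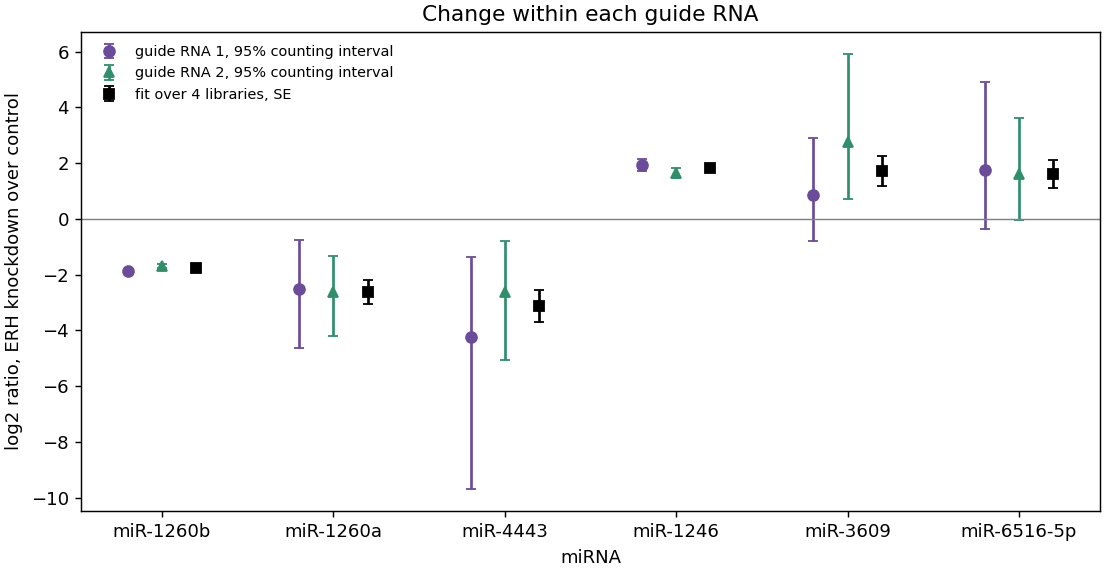
Log2 ratio of ERH knockdown to control (y axis) for each of the 6 miRNAs within guide RNA 1 and guide RNA 2, with 95% counting intervals, and from the fit over 4 libraries with its SE. Both guide RNAs give the same sign for each miRNA, and the intervals are narrow only for miR-1260b and miR-1246.

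The pair of abundant members can be set against each other inside a library, where no scaling is needed. There were 0.782 and 0.474 reads of miR-1246 per read of miR-1260b in knockdown libraries, against 0.056 and 0.047 in control libraries. Knockdown libraries averaged 0.628 ± 0.217 and controls 0.051 ± 0.007 (SD, n = 2 each), 12.2-fold higher after knockdown. Both miRNAs were chosen for their changes, which go in opposite directions, so this ratio restates them and is a description. Against miR-484, a miRNA whose precursor is made without Microprocessor and whose own log2 fold change was -0.11 ± 0.06 with TMM, 0.33 with library size and 0.57 with both spike-ins, miR-1246 stood at 0.280 ± 0.056 reads per read after knockdown and 0.075 ± 0.011 in controls. miR-1260b stood at 0.458 ± 0.070 after knockdown and 1.45 ± 0.03 in controls by the same measure. The ratios to miR-484, too, restate the changes for which miR-1246 and miR-1260b were chosen. The 6 miRNAs together took 0.176% and 0.166% of miRNA reads after knockdown, against 0.283% and 0.277% in controls. This sum mostly follows miR-1260b, which gave 3812 of 4052 and 6503 of 6855 such reads in controls. It does not show the rises of miR-1246, miR-3609 and miR-6516-5p.

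The direction of each of the 6 held under every scaling tried, while their size moved with it. Spike-in RNAs, by their names fly miR-14 and frog miR-427, are counted in every library. Over all tested miRNAs the median change was 0.75 when scaled by both, 0.50 by library size alone and 0.06 by TMM. With both spike-ins, miR-1260b was at -1.07 ± 0.39, miR-1260a at -1.95 ± 0.59 and miR-4443 at -2.48 ± 0.79. By the same scaling miR-1246 was at 2.48 ± 0.39, miR-3609 at 2.38 ± 0.67 and miR-6516-5p at 2.25 ± 0.69. The spike-ins did not keep 1 ratio: there were 7.78 and 9.82 frog reads per fly read in knockdown libraries, against 7.14 and 7.18 in controls. With the fly spike-in alone, miR-1260b was at -0.78 ± 0.55 and miR-1260a at -1.68 ± 0.72, and neither was called.

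**Figure D4:**
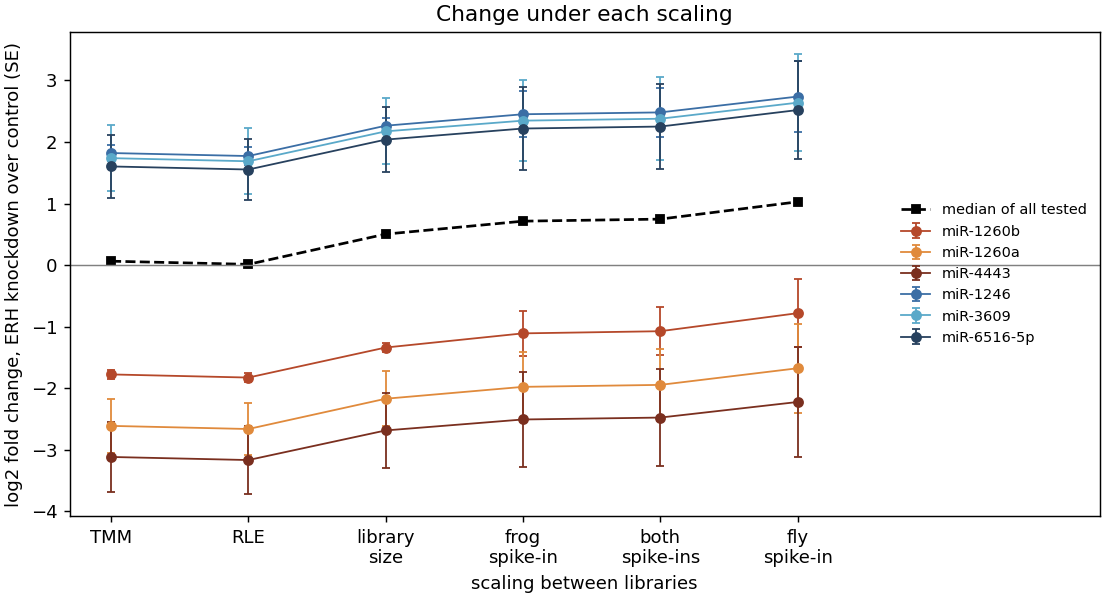
Log2 fold change of ERH knockdown over control with its SE (y axis) under 6 ways of scaling the libraries (x axis), for the 6 miRNAs and for the median of all tested miRNAs (dashed). All lines shift upward with the spike-ins, and the 3 falls stay below 0 and the 3 rises above 0 under each scaling.

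Among the 464 miRNAs that passed the filter on low counts, the falls of miR-4443, miR-1260a and miR-1260b ranked 1, 2 and 5 by size, and the rises of miR-1246, miR-3609 and miR-6516-5p ranked 6, 7 and 10. All 6 were among the miRNAs called at an adjusted p under 0.05, 3 in each direction, which the choice of members largely fixed. Of all tested miRNAs, 25.6% were called up and 25.2% down, 50.9% in all. Their groups did not overlap, as for 41.4% of tested miRNAs with knockdown higher and 34.9% with control higher, 76.3% in all. Because the 6 were chosen for their changes, nothing is read from these shares. The low-count miRNAs miR-1260a, miR-4443, miR-3609 and miR-6516-5p, 4 of the 6, reached the filter's 4.33 unscaled CPM only in the group in which they were high, so they had to differ to be tested. The call of miR-1260a was lost without control replicate 2 (-2.22), and those of miR-3609 and miR-6516-5p without any 1 library.

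**Figure D5:**
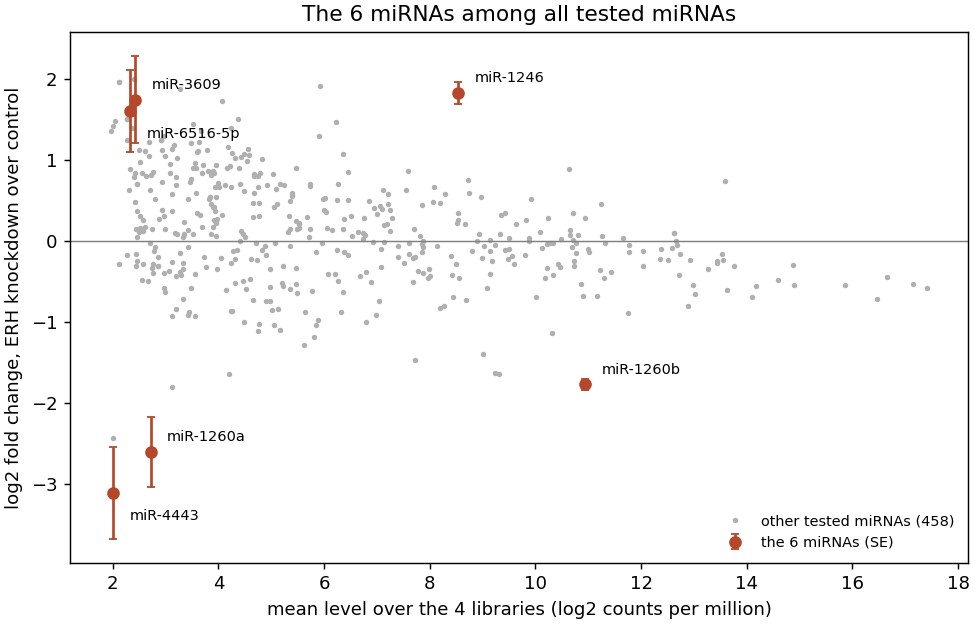
Log2 fold change of ERH knockdown over control (y axis) against mean level in log2 CPM (x axis) for the 6 miRNAs, with SE, and for the 458 other tested miRNAs. miR-1260b and miR-1246 lie outside the other miRNAs of like level, and the other 4 lie at the low end, where changes spread most.

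Other annotated miRNAs were followed through 5 lists. The 4 lists of miRNAs that lie in or resemble small RNAs held 35 names, of which 23 had a row and 3 were tested. Of those 3, 1 rose and 0 fell, with a median log2 fold change of 0.70, the value of miR-4485-3p. That miRNA reached the filter's 4.33 unscaled CPM only after knockdown (6.73 and 5.85, against 1.40 and 3.63 in controls). For miR-664b-3p, which rose, the values were 16.2 and 16.3 after knockdown and 4.89 and 4.04 in controls. The filter thus favoured a rise of both, and nothing is read from these counts. The other list is of miRNAs made without Microprocessor, where 4 of 7 names were tested. There 2 rose, both of them arms of miR-877, and 0 fell. The 5 lists together held 42 names, of which 28 had a row and 7 were tested. Of these 7, 3 rose, 0 fell and 4 did not pass the test (edgeR quasi-likelihood test, Benjamini-Hochberg adjustment), where 25.6% of all tested miRNAs rose and 25.2% fell, with a median log2 fold change of 0.51 for the 7 and 0.06 for the 464 tested. At an unadjusted p under 0.05 the fallers were also 0, and DESeq2 called 1 of the 7 up and 0 down, against 48 up and 102 down of all 464. DESeq2 gave no adjusted p for miR-4485-3p, 1 of the 7, or for 63 of the 464, which it thus could not call. These p-values set a change against the spread between libraries of a group, which mixes cultures, guide RNAs and technical variation.

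In the snoRNA and scaRNA list 2 of 16 names were tested. miR-664b-3p, which lies in SNORA36A, a snoRNA that guides modification of ribosomal RNA, had 36 and 39 reads after knockdown, against 7 and 10 in controls, and rose by 1.44 ± 0.33 (adjusted p = 0.0024). That call was lost without control replicate 2 (1.30). miR-664a-3p, which lies in SNORA36B, had 222 and 229 reads after knockdown, against 98 and 156 in controls, at 0.14 ± 0.12 (adjusted p = 0.38). miRNAs inside snoRNA genes thus did not all pass. miR-4485-3p, whose 20 bases are found in the mitochondrial ribosomal RNA MT-RNR2, had 15 and 14 reads in knockdown libraries and 2 and 9 in control libraries, at 0.70 ± 0.47 (adjusted p = 0.23). In the transfer RNA list 0 of 7 names were tested and only miR-4454 had a row, at 1 and 4 reads in knockdown libraries and 2 and 4 in control libraries, so no other transfer-RNA-like entry could be set beside miR-1260a and miR-1260b. Of the ribosomal RNA list 0 of 6 were tested.

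Among miRNAs known to be made without Microprocessor, both arms of miR-877, a miRNA spliced out as a short intron, rose. miR-877-5p had 192 and 189 reads after knockdown, against 56 and 111 in controls, a change of 0.51 ± 0.15 (adjusted p = 0.0092). miR-877-3p had 114 and 92 reads after knockdown, against 31 and 41 in controls, a change of 0.82 ± 0.21 (adjusted p = 0.0049). miR-1226-3p, also from a short intron, was at 0.21 ± 0.16 (adjusted p = 0.29), and miR-484 at -0.11 ± 0.06 (adjusted p = 0.14). Neither call was made without knockdown replicate 1 (0.46 for miR-877-5p and 0.62 for miR-877-3p) or by DESeq2. That of miR-877-5p was also lost without control replicate 1 (0.40), and that of miR-877-3p without control replicate 2 (0.62).

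By the distance between log2 CPM profiles over the 4 libraries, each centred on its own mean, miR-1260a, miR-1260b and miR-4443 lay within 0.499 to 0.584 of each other, and miR-1246, miR-3609 and miR-6516-5p within 0.718 to 0.925. The nearest outside miRNA was miR-223-5p for miR-1260b (0.335; 781 and 856 reads after knockdown, 1343 and 1740 in controls), followed by miR-25-5p (0.349) and miR-21-3p (0.349). For miR-1260a and miR-4443 it was miR-212-5p (0.601 and 0.543), with 1 and 5 reads in knockdown libraries and 7 and 14 in control libraries. Next for miR-1260a came miR-19a-5p (0.804) and miR-223-5p (0.827), and for miR-4443 miR-223-5p (0.784) and miR-21-3p (0.799).

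For miR-1246 the nearest were miR-518b (0.409), miR-548l (0.550) and miR-149-5p (0.556). For miR-3609 they were miR-548t-5p (0.236), miR-1255b-5p (0.394) and miR-1229-3p (0.430). For miR-6516-5p they were miR-548l (0.197), miR-664b-3p (0.257), whose hairpin overlaps SNORA36A, and miR-653-3p (0.257). The median distance to other tested miRNAs ran from 1.28 for miR-6516-5p to 2.39 for miR-4443. With 4 libraries, such a distance mostly restates the size and sign of the change.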

How the data were processed

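Small RNA of 2 ERH knockdown and 2 control libraries was counted by the authors, and the deposited values are raw counts, 1 whole number per mature miRNA and library. The trimming, aligner, miRNA annotation, genome build and handling of reads that match several RNAs were not given in the sources used here. The 2 spike-in rows were kept out of library sizes.

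The members and lists were chosen with earlier results of these data known. miRNAs were filtered with filterByExpr of edgeR 4.0.16 under R 4.3.3, with a minimum count of 10 and a minimum total of 15. This left 464 with 99.93% of reads. TMM scaling and the quasi-likelihood test, without a block, followed. The SE is the absolute log2 fold change divided by the root of the F statistic. The test was checked on simulated counts, with the same noise level for every miRNA, rises and falls equally likely, and no pairing. That check does not decide between scalings. Replicate numbers are guide RNAs, each its own line, so they pair the libraries by design, although the deviations of same-numbered libraries correlated at only -0.109. Within groups, libraries were not duplicates: a chi-square test gave 3.93 per degree of freedom between knockdown libraries and 10.1 between control libraries. A count of 0 allows 3 reads, 1.21 to 2.10 unscaled CPM. Intervals and such limits cover counting error only, since no molecular identifiers are stated.

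Sequences and fold energies (RNAfold 2.7.2) used RefSeq hairpins, with 2090 of 2366 names matched, and hairpin genes of GENCODE 29, with 2363 matched. Cytosolic transfer RNA sequences were not used here. Alternatives were the replicate block, RLE, library size, spike-ins, DESeq2 1.42.0, 2 other filters, leaving out the most abundant miRNA or the members from scaling, and leaving out each library. Single spike-ins and a crossed pairing were added after seeing the data. Named miRNAs are the 6 members, the other arm, every list member that was tested and the 3 nearest profiles of each member. Lineage markers were a list of their own. Those named in the closing section beyond this rule, and miR-4454, were chosen after their values were seen. Plots used matplotlib 3.10.9.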

Additional observations from a re-analysis of the deposited data

How the results depend on the processing

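No member changed direction under the alternatives run for single miRNAs, which leave out the crossed pairing. The members were chosen for their changes, so their calls describe the fit and support nothing. Calls of 4 members rest on few reads. Without each library in turn, miR-3609 ranged from 0.92 to 2.60 and miR-6516-5p from 1.502 to 1.76, both never called, and miR-1260a from -2.90 to -2.22, not called without control replicate 2. miR-1260b (-1.90 to -1.68) and miR-1246 (1.54 to 2.04) were called each time, and miR-4443 (-3.98 to -2.60) in the 3 runs that tested it. Leaving a group with 1 library assumes that it varies like the other group. With the fly spike-in alone, miR-1260b (-0.78) and miR-1260a (-1.68) were not called. The filter of 10 CPM left only miR-1246 and miR-1260b, and DESeq2 gave no adjusted p for miR-4443, miR-3609 and miR-6516-5p.

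With guide RNA as a replicate block, 230 miRNAs were called, against 236 without, and miR-1260b was at -1.78, miR-1260a at -2.55, miR-4443 at -3.10, miR-1246 at 1.78, miR-3609 at 1.73 and miR-6516-5p at 1.62, so the block changed no call of a member. The crossed pairing called 241.

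The count of all calls was 117 to 195 without 1 library, with 48 to 84 up and 68 to 111 down. It was 150 with DESeq2 (48 up, 102 down). Library size gave 273 up and 41 down, both spike-ins 186 and 8, the frog spike-in 185 and 8, and the fly spike-in 145 in all with 1 down, which was miR-4443. In the 4 lists of other small RNAs, with 1 up and 0 down of 3, 3 were up with library size. With both spike-ins 2 were up, and with the frog spike-in 2. Without a filter 1 was down, which was none of these 3 but a row that the main filter had left out. Without 1 library, miR-664b-3p ran from 1.30 to 1.52. In the Microprocessor-independent list, with 2 up and 0 down of 4, 4 were up with library size and 0 with DESeq2. With both spike-ins 3 were up and with the frog spike-in 3, miR-1226-3p among them each time, and 1 was down with RLE. Without 1 library, miR-877-5p ran from 0.40 to 0.65 and miR-877-3p from 0.62 to 0.99. The match counts (2 of 5 with runs of 16, of 14 or of the whole sequence) did not move. Nor did the overlaps with GENCODE genes (1 of 6 on the same or either strand), while the RefSeq gene table gave 2 of 6 on either strand.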

Other observations

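The short length of miR-1260a, miR-1260b, miR-1246 and miR-4443 is shared by 6 other tested miRNAs of 19 or fewer bases, a group chosen after values were seen. Of these, 2 rose, 1 fell and 3 did not pass the test, near the 25.6% up and 25.2% down of all tested miRNAs, with a median log2 fold change of -0.21. miR-3176 had 89 and 96 reads after knockdown, against 20 and 37 in controls, and rose by 1.01 ± 0.20. miR-7976 rose by 0.82 ± 0.21, and miR-1275 changed by -1.19 ± 0.15, at 97 and 98 reads in knockdown libraries and 95 and 183 in control libraries. miR-4284, whose 18 bases are found in the mitochondrial transfer RNA MT-TF, had 18 and 14 reads in knockdown libraries and 6 and 17 in control libraries, and stood at -0.21 ± 0.39. It is the 1 tested miRNA with a whole match to a transfer RNA of those searched, and its groups overlapped.

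Besides miR-1246 and miR-6516-5p, 5 tested miRNAs share a run of at least 16 bases with another small RNA. Of these, 2 rose and 0 fell, where 25.6% of all tested miRNAs rose and 25.2% fell. They include miR-664a-3p, miR-664b-3p and miR-4485-3p, the tested miRNAs of the small RNA lists above, so this is not a separate group. The 2 that rose are miR-664b-3p, already given, and miR-1285-3p. These 5, like the other miRNAs named here, were picked after values were seen. miR-1285-3p, with 21 of its bases in a 7SL-related RNA, rose by 0.86 ± 0.11. miR-4521 had 5565 and 5925 reads after knockdown, against 2392 and 3391 in controls, and rose by 0.28 ± 0.07. Its hairpin overlaps the serine transfer RNA gene TRS-GCT4-3 in the RefSeq gene table, by position, with strands not compared. The only other tested miRNA with the letters CCACCA was miR-3194-5p, at 0.10 ± 0.12. Of the rows in the lists, 21 were too low to test, none with more than 10 reads in a library, and they summed to 55 and 64 reads in knockdown libraries, against 40 and 45 in control libraries.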
